A study of Mus musculus with 12 samples.

Results

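The 35 genes described here encode enzymes, carriers and membrane proteins of mitochondrial and peroxisomal fatty acid beta-oxidation. They were taken from a fixed list of symbols, matched to the gene names of the deposited table, and 35 of 35 were found among 25947 named entries. By textbook location 16 were counted as mitochondrial, 11 as peroxisomal, 5 as present in both compartments, and 3 as long-chain acyl-CoA synthetases of several membranes.

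Beta-oxidation shortens fatty acids by a repeated cycle of dehydrogenation, hydration, second dehydrogenation and thiolysis. Mitochondria carry out the cycle for short-, medium- and long-chain fatty acids and pass the electrons to the respiratory chain through electron transfer flavoprotein. Peroxisomes shorten very long and branched chains and bile acid precursors, with oxidases that make hydrogen peroxide at the first step. In liver, the nuclear receptor PPAR-alpha is known to raise many of these genes in fasting and under dietary fat.

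The samples were livers of wild-type (WT) mice kept for 4 months on a normal diet (ND) or on a high-fat diet (HFD), high-fat feeding being the steatosis model. The mice then had a sham operation or ischemia-reperfusion injury (IRI), in which part of the hepatic inflow was ligated for 1 h and tissue was taken 6 h after release. Crossing diet and operation gave ND-Sham, ND-IRI, HFD-Sham and HFD-IRI, with 3 libraries each. Sham operations went without the ligation. Strain, sex and age are not named in the labels or design text. The labels do not say whether the libraries of a group are separate animals, and the p-values therefore rest on a spread between libraries that may be technical.

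Sequences are shown for 5 genes: Hadha with Hadhb and Acaa1a with Acaa1b, because their values are compared in pairs, and Pex11a, because it had the largest log2 difference between the diets in sham livers. Hadha and Hadhb, the alpha and beta subunits of the mitochondrial trifunctional protein, start 273 bases apart on opposite strands of chromosome 5. RefSeq's promoter windows for them (build GRCm38.p6) share 228 bases, chr5:30155003-30155230, which lie between both start sites and are printed on the plus strand. Acaa1a and Acaa1b encode close peroxisomal thiolases, and Pex11a a membrane protein of peroxisome division. For these 3 the 250 bases before the start site are printed, on the gene's strand, at chr9:119341044-119341293 (plus strand), chr9:119157094-119157343 (minus strand) and chr7:79743132-79743381 (minus strand). Capitals mark GGGCGG (the GC box bound by Sp factors), CCAAT, and the hexamer AGGTCA bound by nuclear receptors, each on either strand.
Hadha/Hadhb: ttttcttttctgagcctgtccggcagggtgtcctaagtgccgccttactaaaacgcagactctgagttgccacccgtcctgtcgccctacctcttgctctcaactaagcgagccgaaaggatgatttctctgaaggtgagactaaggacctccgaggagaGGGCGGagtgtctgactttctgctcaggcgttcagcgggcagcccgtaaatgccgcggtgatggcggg
Acaa1a: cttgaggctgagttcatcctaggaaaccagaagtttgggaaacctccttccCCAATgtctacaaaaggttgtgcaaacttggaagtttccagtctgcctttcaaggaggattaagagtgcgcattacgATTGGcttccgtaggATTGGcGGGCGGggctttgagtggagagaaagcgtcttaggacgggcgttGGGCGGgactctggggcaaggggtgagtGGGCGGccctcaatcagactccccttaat
Acaa1b: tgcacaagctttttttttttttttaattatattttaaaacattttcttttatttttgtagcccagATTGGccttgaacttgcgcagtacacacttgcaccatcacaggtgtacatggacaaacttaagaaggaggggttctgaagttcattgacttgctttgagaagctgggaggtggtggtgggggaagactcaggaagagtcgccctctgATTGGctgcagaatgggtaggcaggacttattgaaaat
Pex11a: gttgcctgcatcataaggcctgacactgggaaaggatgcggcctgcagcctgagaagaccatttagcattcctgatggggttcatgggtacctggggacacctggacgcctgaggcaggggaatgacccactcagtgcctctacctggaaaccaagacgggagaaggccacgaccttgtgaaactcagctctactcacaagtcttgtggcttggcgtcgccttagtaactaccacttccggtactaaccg
The window of Acaa1a held 3 GC boxes and 3 CCAAT, that of Acaa1b 0 and 2, and that of Pex11a none of the motifs marked. The shared Hadha/Hadhb stretch held 1 GC box.

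RefSeq windows of 300 bases, from 250 before to 50 after a start site, were matched for 30 of the 35 members. These 30 had 33 windows. A member was counted if any of its windows held a motif, while the background was counted per window. A GC box was in windows of 22 of these 30, against 35.7% of all 32851 windows in the table. It was in 10 of the 14 mitochondrial and 7 of the 10 peroxisomal members matched. TATAAA was in 0 of 30, against 13.6%, and CCAAT in 15 of 30, against 37.4%. The PPAR response element, searched as 2 direct copies of AGGTCA with 1 free base between them, was in 0 of 30, against 0.0396%. With copies of AGGNCA in place of AGGTCA it was in 0 of 30, against 0.381%. The hexamer AGGTCA, which is contained in the strict element, was in 5 of 30 (Acadm, Acadvl, Acsm1, Echs1 and Scp2), against 16.3%. Its extended form TCAAGGTCA was in 0 of 30, against 0.423%, and the E-box CACGTG in 0 of 30, against 7.15%. All motifs were searched on both strands, and a match or its absence describes these windows only.

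Levels are in TPM, the transcript abundance scaled by gene length and library total in the deposited table, in the order of libraries 1, 2 and 3, or as mean ± SD (n = 3 libraries). No counting interval accompanies them, because the table keeps no depth. The libraries each had 18935 to 20425 genes above 0. Differences were tested with limma on log2(TPM + 1) over the 13364 genes that reached 1 TPM in 3 or more libraries. Tests were two-sided, and genes past an adjusted p of 0.05 are described as called. All 35 members passed that filter. With 3 libraries against 3, an exact permutation test could not give a p below 0.1. Adipoq, an adipocyte transcript, stood at 11.6 TPM in ND-Sham 1 and at most at 0.230 elsewhere. Normal-diet counts are also given without ND-Sham 1 and ND-IRI 1. In ND-IRI 1 Adipoq was at 0.14 TPM. The members took 0.974% of the TPM of that library, the highest share of the ND-IRI libraries.

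After IRI on the normal diet, 31 of the 35 members fell and 1 rose. The background was high: 46.8% of all tested genes were called, 16.6% lower and 30.2% higher. The median log2 difference of the members was -0.85, against 0.16 over all tested genes. Of the mitochondrial members 15 of 16 fell, of the peroxisomal 10 of 11, and of those in both compartments 5 of 5. Acsl5 was the member that rose, and Acadsb, Acox3 and Acsl3 were not called. On the high-fat diet 31 of 35 fell and 0 rose, against a background of 45.9% called, 21.9% lower and 24% higher. There the median of the members was -0.58 and that of all tested genes 0.01. All 16 mitochondrial members, 10 of 11 peroxisomal members and 4 of the 5 in both compartments fell, while Ehhadh, Eci2, Acsl3 and Acsl5 were not called. The members that fell on both diets were 29, of 31 on each diet, whereas 13.5% of all tested genes fell on both. Calls on the high-fat diet that ended without at least 1 library were those of Acadvl, Acadsb, Hadh, Eci1, Ech1, Etfa and Acox3. The first 6 of them also ended with median-ratio scaling, which left 25 members lower, against 24.9% of all tested genes lower and 25.3% higher.

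**Figure D1:**
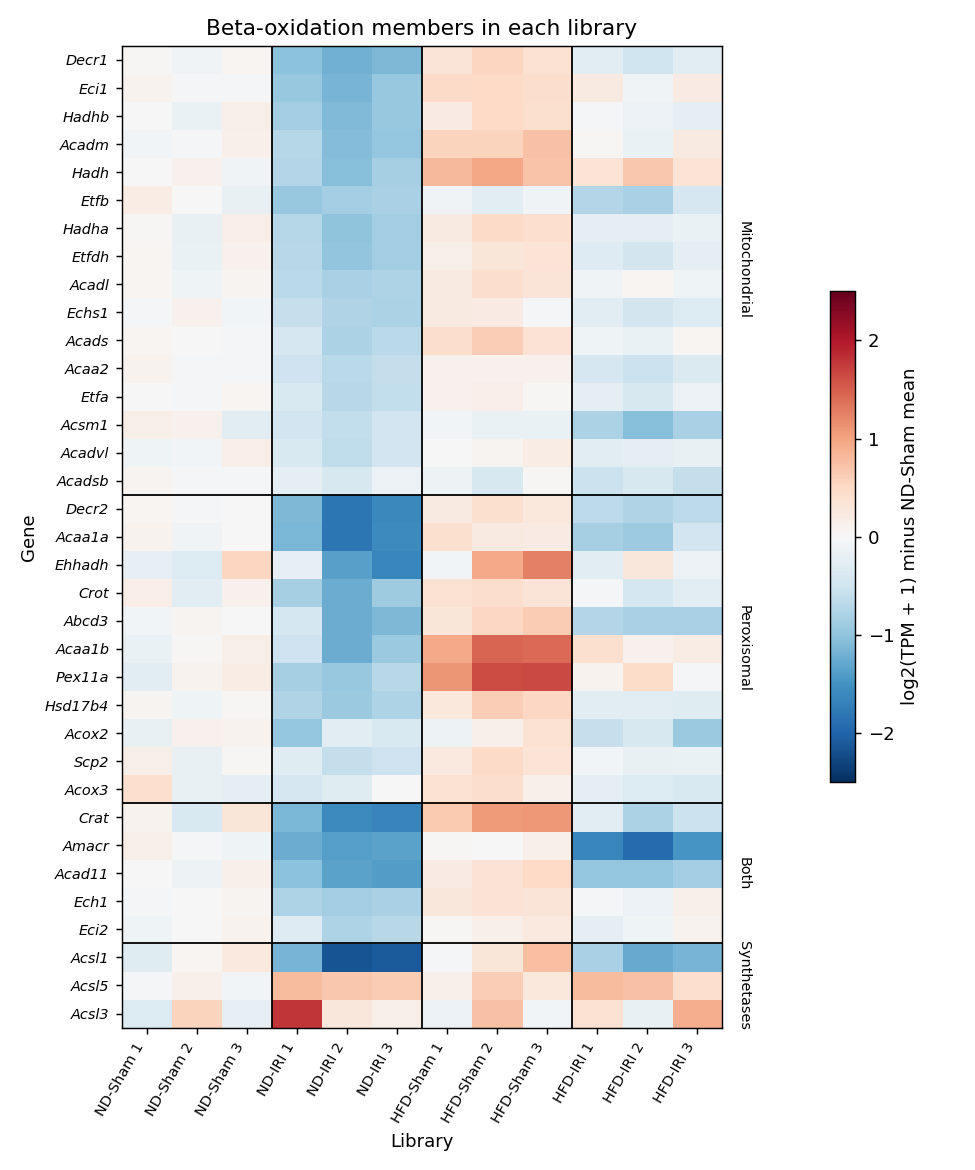
Level of each member (rows, grouped by compartment) in each of the 12 libraries (columns), as log2(TPM + 1) minus the ND-Sham mean of that gene, on a colour scale from blue (lower) to red (higher). Nearly every row is blue in ND-IRI, Acsl5 and Acsl3 excepted, and the HFD-Sham block is reddest for Pex11a and Acaa1b, which had log2 differences of 1.46 and 1.27 from ND-Sham.

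In sham livers, 9 of the 35 members were higher on the high-fat diet and 0 were lower, against 4.63% and 1.2% of all tested genes (5.84% in either direction). The 9 were Acadm, Acads, Hadh, Eci1 and Decr1 of mitochondria, Acaa1b, Hsd17b4 and Pex11a of peroxisomes, and Crat. The median log2 difference of the members was 0.33, against 0.17 over all tested genes. Median-ratio scaling shifted all genes by -0.18 in this comparison, brought the members' median to 0.14 and left 1 member called, Pex11a. The background then was 2.08% higher and 1.61% lower, and with quantile normalization, under which 6 members were called (5 of the 9, and Scp2), 2.46% and 1.87%. Without ND-Sham 2 or without HFD-Sham 2 the count was 3 each (1.76% and 1.39% of all genes higher). Without HFD-Sham 3 it was 4 (4.15%), and without ND-Sham 3 it was 5 (1.73%). Hadh, Acaa1b and Pex11a stayed called without each of the 12 libraries in turn, and each of the other 6 lost its call without at least 1 library. Without both ND-Sham 1 and ND-IRI 1, 12 members were called, while the share of all genes called higher rose from 4.63% to 11.7%.

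After IRI, 17 of the 35 members were higher in HFD-IRI than in ND-IRI livers and 0 were lower, against 2.38% and 1.48% of all tested genes (3.86% in either direction). They included the 9 members that were higher in sham livers, and Acadl, Hadha, Hadhb, Etfdh, Ech1, Decr2, Acaa1a and Crot. The members' median was 0.54, against 0.04 over all tested genes. With median-ratio scaling, which shifted all genes by -0.03, 8 members were called against 1.76% of all genes higher and 1.46% lower, and the members' median was 0.51. The count was 10 without ND-IRI 2 (1.09% of all genes higher), 11 without HFD-IRI 1 (1.13%), and 10 when only these 2 groups entered the fit (1.46%). Leaving out both ND-Sham 1 and ND-IRI 1 gave 19 (2.94%). Calls that were lost without at least 1 library were those of Acads, Hadha, Etfdh, Acaa1a, Hsd17b4, Crat and Crot.

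Long-chain acyl-CoA synthetases attach fatty acids to coenzyme A before oxidation or esterification, and the 3 members of this family differed in direction. Acsl1, the main hepatic isoform, was at 355, 449.96 and 518 TPM in ND-Sham, 194, 97.1 and 101 in ND-IRI, 422, 541 and 739 in HFD-Sham and 248, 182 and 194 in HFD-IRI livers. Its IRI libraries were all below the sham libraries of the same diet. It fell on the normal diet (log2 difference -1.80, SE 0.271, adjusted p = 0.00026) and on the high-fat diet (log2 difference -1.42, SE 0.271, adjusted p = 0.00132), the lowest estimate of any member in the former. Acsl5, found on mitochondria and endoplasmic reticulum, was at 139, 158 and 138 TPM in ND-Sham, 253, 232 and 224 in ND-IRI, 158, 221 and 173 in HFD-Sham and 249.7, 241 and 193 in HFD-IRI livers. The ND groups did not overlap and Acsl5 rose (log2 difference 0.70, SE 0.142, adjusted p = 0.00178), while the HFD groups overlapped and it was not called (log2 difference 0.31, SE 0.142, adjusted p = 0.0923). The difference between its IRI effects was not called either (log2 difference -0.39, 95% interval -0.83 to 0.05, adjusted p = 0.547). Acsl3, an isoform of endoplasmic reticulum and lipid droplets, was at 15.6, 30.03 and 17.2 TPM in ND-Sham, 71.4, 24.8 and 22.3 in ND-IRI, 18.2, 33.9 and 19.04 in HFD-Sham and 26.4, 17.7 and 38.5 in HFD-IRI livers. ND-IRI 1 was the highest library, the groups overlapped, and no comparison of Acsl3 was called. Acsm1, a mitochondrial medium-chain acyl-CoA synthetase, was at 377, 368 and 282 TPM in ND-Sham, 242, 223 and 245 in ND-IRI, 324, 304 and 302 in HFD-Sham and 196, 162 and 193 in HFD-IRI livers. It fell on both diets (log2 difference -0.52, adjusted p = 0.00551, and log2 difference -0.76, adjusted p = 0.000574), with no overlap between IRI and sham.

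Carnitine acyltransferases and a transporter move acyl groups across the membranes. Crat, carnitine acetyltransferase of both compartments, was at 50.4, 36.1 and 58.5 TPM in ND-Sham, 20.99, 15 and 14.3 in ND-IRI, 75.02, 100.2 and 101 in HFD-Sham and 38.8, 27.1 and 32.3 in HFD-IRI livers. Its IRI libraries were lower than every sham library of either diet except ND-Sham 2, which HFD-IRI 1 exceeded. Crat fell by nearly the same estimate on the normal diet (log2 difference -1.46, SE 0.21, adjusted p = 0.000182) and on the high-fat diet (log2 difference -1.47, SE 0.21, adjusted p = 0.000202). The high-fat diet libraries were higher in sham (log2 difference 0.93, adjusted p = 0.0246) and in IRI livers (log2 difference 0.93, adjusted p = 0.0294). The call in IRI livers was lost without ND-IRI 2 or 3 or HFD-IRI 1 or 3 (adjusted p up to 0.132), with median-ratio or quantile scaling, and with no filter. It was also lost with only the ND-IRI and HFD-IRI groups in the fit (adjusted p = 0.063). Crot, which makes medium-chain acylcarnitines for export from peroxisomes, was at 469.6 ± 76.7 TPM in ND-Sham, 236 ± 33.98 in ND-IRI, 605 ± 23.2 in HFD-Sham and 394 ± 51.99 in HFD-IRI livers. It fell on both diets (log2 difference -0.98, adjusted p = 0.000292, and log2 difference -0.63, adjusted p = 0.00547). Abcd3, the peroxisomal membrane transporter also called PMP70, was at 283 ± 13.6 TPM in ND-Sham, 152 ± 49.04 in ND-IRI, 399 ± 46.2 in HFD-Sham and 164 ± 4.80 in HFD-IRI livers. It fell on both diets (log2 difference -0.94, adjusted p = 0.00115, and log2 difference -1.27, adjusted p = 0.000175).

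Acyl-CoA dehydrogenases catalyse the first mitochondrial step, each for a range of chain lengths. Acadvl, for very long chains, was at 255, 263 and 309.7 TPM in ND-Sham, 209.5, 176 and 197 in ND-IRI, 275, 289 and 313 in HFD-Sham and 227, 231 and 241 in HFD-IRI livers. Its IRI libraries were below the sham libraries on each diet, and the log2 differences were -0.50 (adjusted p = 0.00288) and -0.32 (adjusted p = 0.0296). The call on the high-fat diet was lost without HFD-Sham 2 or 3 or HFD-IRI 1 or 2 (adjusted p up to 0.102). Acadl, for long chains, and Acadm, for medium chains, were at 376 ± 25.6 TPM in ND-Sham, 223 ± 11.2 in ND-IRI, 472 ± 35.1 in HFD-Sham and 362 ± 21.3 in HFD-IRI livers, and at 370.1 ± 28.6 TPM in ND-Sham, 196 ± 27.5 in ND-IRI, 566 ± 41.1 in HFD-Sham and 379 ± 50.5 in HFD-IRI livers. Both fell on each diet. The log2 differences of Acadl were -0.75 (adjusted p = 0.00012) and -0.38 (adjusted p = 0.00973), and those of Acadm -0.92 (adjusted p = 0.00018) and -0.58 (adjusted p = 0.0038). Acads, for short chains, was at 184, 177 and 176 TPM in ND-Sham, 134, 103 and 112 in ND-IRI, 242, 276 and 231 in HFD-Sham and 167, 160.4 and 184 in HFD-IRI livers. It fell after IRI (log2 difference -0.62, adjusted p = 0.0011, and log2 difference -0.55, adjusted p = 0.00269) and was higher on the high-fat diet in sham (log2 difference 0.47, adjusted p = 0.036) and in IRI livers (log2 difference 0.55, adjusted p = 0.0216). Acadsb, which acts mainly on branched-chain amino acid products, was at 51.9, 48.7 and 48.7 TPM in ND-Sham, 42.3, 37.7 and 44.6 in ND-IRI, 45.3, 37.4 and 50.9 in HFD-Sham and 33.8, 37.4 and 32.8 in HFD-IRI livers. The groups did not overlap on the normal diet, where it was not called (log2 difference -0.26, adjusted p = 0.116), and it fell on the high-fat diet (log2 difference -0.35, adjusted p = 0.0428), a call lost without any of 7 libraries (adjusted p up to 0.171).

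Electron transfer flavoprotein takes the electrons of these dehydrogenases and hands them to its ubiquinone oxidoreductase. The alpha subunit, Etfa, was at 489.6, 481 and 511 TPM in ND-Sham, 378, 303 and 322 in ND-IRI, 530.3, 557 and 502 in HFD-Sham and 416, 375 and 445 in HFD-IRI livers. The beta subunit, Etfb, was at 65.2 ± 8.41 TPM in ND-Sham, 34.98 ± 1.81 in ND-IRI, 58.5 ± 4.17 in HFD-Sham and 41.1 ± 6.17 in HFD-IRI livers. IRI libraries were below sham libraries for both subunits on both diets, and the log2 differences were -0.57 and -0.36 for Etfa and -0.87 and -0.51 for Etfb. The high-fat diet call of Etfa was lost without HFD-Sham 1 or 2 or HFD-IRI 2 (adjusted p up to 0.0682). Etfdh, the oxidoreductase, was at 146, 126 and 151 TPM in ND-Sham, 86.5, 70.6 and 75.95 in ND-IRI, 156, 174 and 177 in HFD-Sham and 112, 102 and 121 in HFD-IRI livers. It fell after IRI (log2 difference -0.85, adjusted p = 0.000155, and log2 difference -0.60, adjusted p = 0.00173) and was called between the diets in IRI livers (log2 difference 0.52, adjusted p = 0.0326) but not in sham livers (log2 difference 0.26, adjusted p = 0.227). The former call was lost without ND-IRI 2 or 3 or HFD-IRI 1 or 3 (adjusted p up to 0.14) and with median-ratio or quantile scaling. It was also lost with only the ND-IRI and HFD-IRI groups in the fit (adjusted p = 0.111).

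The trifunctional protein carries out the later steps on long chains, and its subunits, whose shared upstream stretch is printed above, both fell on each diet. Hadha was at 145, 125 and 159 TPM in ND-Sham, 86.8, 70.4 and 78.1 in ND-IRI, 167, 198 and 190.5 in HFD-Sham and 122, 121 and 127 in HFD-IRI livers. Hadhb was at 102, 89.97 and 113 TPM in ND-Sham, 54.7, 46.8 and 52.1 in ND-IRI, 117, 143 and 133 in HFD-Sham and 97.5, 90.7 and 86.7 in HFD-IRI livers. On each diet every IRI library of both subunits was below every sham library. On the normal diet the log2 difference was -0.86 for Hadha (adjusted p = 0.000157) and -0.97 for Hadhb (adjusted p = 6.9e-05), and on the high-fat diet it was -0.58 (adjusted p = 0.00232) and -0.50 (adjusted p = 0.00517). The ratio of Hadhb to Hadha TPM was 0.700 to 0.718 in ND-Sham, 0.631 to 0.668 in ND-IRI, 0.697 to 0.720 in HFD-Sham and 0.680 to 0.799 in HFD-IRI libraries, with ND-IRI below the other groups. Hadh, the medium- and short-chain hydroxyacyl-CoA dehydrogenase, was at 176, 193 and 167 TPM in ND-Sham, 107, 84.8 and 99.3 in ND-IRI, 313, 351 and 293 in HFD-Sham and 227, 284 and 227 in HFD-IRI livers. All 6 HFD libraries were above all 6 ND libraries. Hadh fell after IRI on both diets (log2 difference -0.88, adjusted p = 0.00022, and log2 difference -0.38, adjusted p = 0.0308) and was higher on the high-fat diet in sham (log2 difference 0.83, adjusted p = 0.00391) and in IRI livers (log2 difference 1.33, adjusted p = 0.000141). The high-fat diet call after IRI was lost without HFD-Sham 1 or 2 or HFD-IRI 1 or 3 (adjusted p up to 0.112). Its mean in HFD-IRI livers was 138% of that in ND-Sham livers.

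Echs1, the short-chain enoyl-CoA hydratase, was at 79.5 ± 5.48 TPM in ND-Sham, 48.4 ± 4.18 in ND-IRI, 87.5 ± 8.55 in HFD-Sham and 61.7 ± 3.93 in HFD-IRI livers and fell on both diets (log2 difference -0.71, adjusted p = 0.000432, and log2 difference -0.49, adjusted p = 0.00437). Auxiliary enzymes act on unsaturated fatty acids. Eci1, the mitochondrial enoyl-CoA isomerase, was at 202, 183 and 182 TPM in ND-Sham, 97.1, 83.9 and 97.3 in ND-IRI, 264, 268 and 258 in HFD-Sham and 221, 177 and 218 in HFD-IRI livers. Its ND-IRI libraries were the lowest, and the HFD-IRI libraries lay near or above the ND-Sham libraries. Eci1 fell on the normal diet (log2 difference -1.02, adjusted p = 3.04e-05) and on the high-fat diet (log2 difference -0.36, adjusted p = 0.0199), where the call was lost without HFD-Sham 1 or 2 or HFD-IRI 2 (adjusted p up to 0.078). Decr1, the mitochondrial dienoyl-CoA reductase, was at 188, 172 and 189.9 TPM in ND-Sham, 90.04, 78.8 and 83.9 in ND-IRI, 229.8, 264 and 239 in HFD-Sham and 153, 129.5 and 151 in HFD-IRI livers. It fell on both diets (log2 difference -1.11, adjusted p = 1.37e-05, and log2 difference -0.76, adjusted p = 0.000193) and was called higher on the high-fat diet in sham and IRI livers (log2 difference 0.41, adjusted p = 0.0453, and log2 difference 0.77, adjusted p = 0.00217). Ech1, a dienoyl-CoA isomerase of both compartments, was at 389, 399 and 421 TPM in ND-Sham, 236, 219 and 229.8 in ND-IRI, 487, 521 and 505 in HFD-Sham and 390.3, 364 and 442 in HFD-IRI livers. It fell on both diets (log2 difference -0.82, adjusted p = 5.74e-05, and log2 difference -0.34, adjusted p = 0.0141) with no overlap between IRI and sham, and without HFD-IRI 2 the second adjusted p was 0.0537. Eci2, an isomerase of both compartments, fell on the normal diet (log2 difference -0.60, adjusted p = 0.00345), and on the high-fat diet its groups overlapped (log2 difference -0.23, adjusted p = 0.188). Acaa2, the mitochondrial thiolase that closes the cycle, was the most abundant mitochondrial member at 1638 ± 82.5 TPM in ND-Sham, 1089 ± 58.2 in ND-IRI, 1764 ± 8.16 in HFD-Sham and 1209.6 ± 75.4 in HFD-IRI livers, and it fell on both diets (log2 difference -0.59, adjusted p = 0.000458, and log2 difference -0.55, adjusted p = 0.000813).

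**Figure D2:**
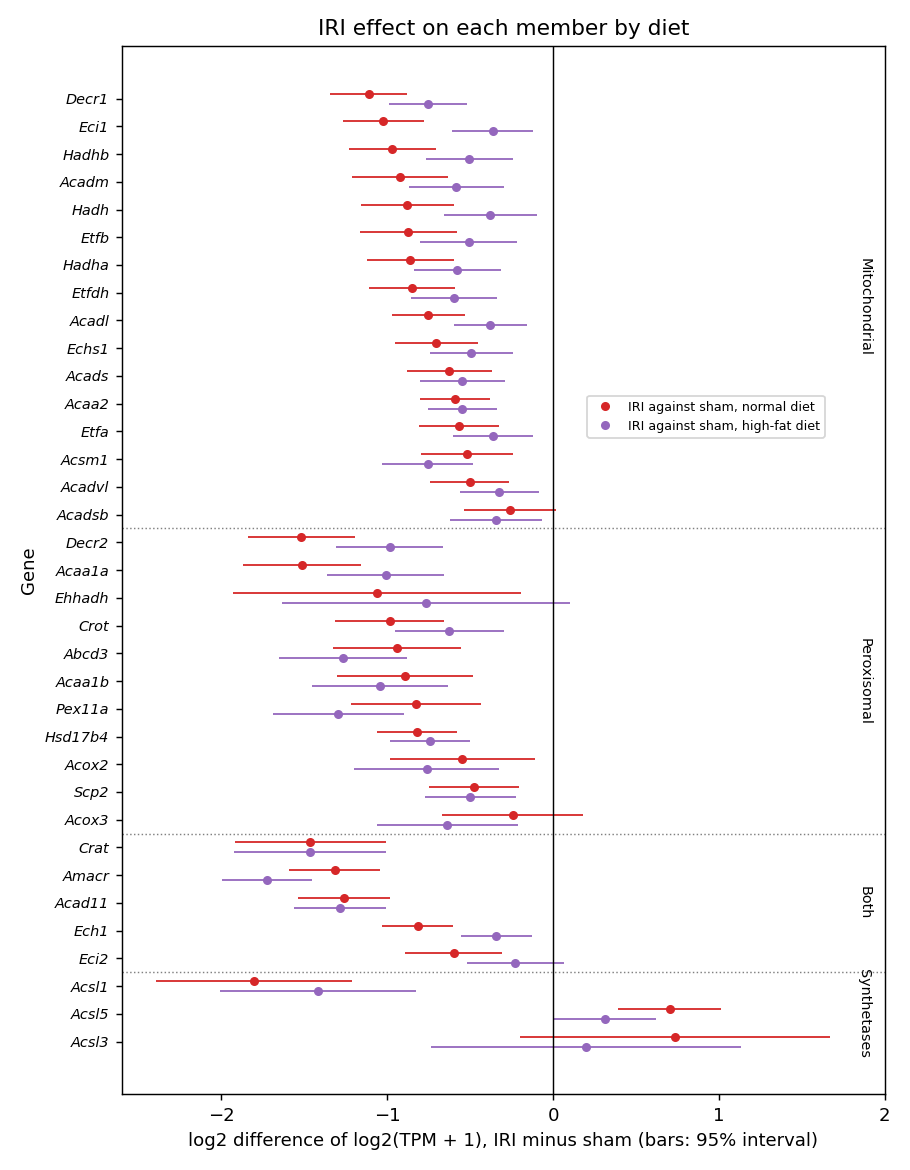
Difference of mean log2(TPM + 1) between IRI and sham libraries for each member (rows, grouped by compartment), with its 95% interval from the model, on the normal diet (red) and the high-fat diet (purple). Most intervals lie left of 0 on both diets, and the red points of most mitochondrial members lie further left than the purple points, with medians of -0.80 and -0.51.

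In peroxisomes, acyl-CoA oxidases take the place of the dehydrogenases. Acox2, the branched-chain oxidase that also acts on bile acid intermediates, was at 161 ± 17.4 TPM in ND-Sham, 111 ± 26.6 in ND-IRI, 176 ± 31.5 in HFD-Sham and 103 ± 18.6 in HFD-IRI livers. It fell on both diets (log2 difference -0.55, adjusted p = 0.0404, and log2 difference -0.76, adjusted p = 0.00869), and the normal-diet call was lost without ND-Sham 2 or 3, ND-IRI 1, HFD-Sham 2 or HFD-IRI 1 (adjusted p up to 0.146). Acox3, the pristanoyl-CoA oxidase, was the least abundant member at 5.46 ± 1.77 TPM in ND-Sham, 4.38 ± 0.816 in ND-IRI, 6.91 ± 0.852 in HFD-Sham and 4.07 ± 0.291 in HFD-IRI livers. It was called on the high-fat diet (log2 difference -0.64, adjusted p = 0.0186), where the call was lost without HFD-Sham 1 or 2, and not on the normal diet (log2 difference -0.24, adjusted p = 0.329). The difference between its IRI effects was not called (log2 difference -0.39, adjusted p = 0.689).

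The bifunctional enzymes catalyse hydration and the second dehydrogenation. Ehhadh, the L-bifunctional enzyme, varied widely within groups, at 825, 751 and 1389 TPM in ND-Sham, 826, 371 and 307 in ND-IRI, 903, 1838 and 2283 in HFD-Sham and 778, 1149.9 and 859 in HFD-IRI livers. ND-IRI 1 lay within the ND-Sham range, and HFD-Sham 1 lay among the HFD-IRI libraries. Ehhadh was called on the normal diet (log2 difference -1.06, SE 0.399, adjusted p = 0.0452) and not on the high-fat diet (log2 difference -0.77, SE 0.399, adjusted p = 0.136). The former call was lost without any of 9 libraries, with adjusted p of up to 0.174. Hsd17b4, the D-bifunctional enzyme, was at 451, 404 and 444 TPM in ND-Sham, 255, 228 and 252 in ND-IRI, 516, 665 and 619 in HFD-Sham and 359, 358 and 351 in HFD-IRI livers. All IRI libraries lay below all sham libraries, and Hsd17b4 fell on both diets (log2 difference -0.82, adjusted p = 0.000119, and log2 difference -0.74, adjusted p = 0.000253). It was higher on the high-fat diet in sham (log2 difference 0.46, adjusted p = 0.0308) and in IRI livers (log2 difference 0.54, adjusted p = 0.0188).

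Peroxisomal thiolase is encoded by paired genes in the mouse, whose close transcripts can share reads, so their separate values are uncertain. Acaa1a was at 237, 211 and 222 TPM in ND-Sham, 100.02, 63.4 and 73.5 in ND-IRI, 294, 261 and 258 in HFD-Sham and 126, 119 and 160.4 in HFD-IRI livers. Acaa1b was at 1822, 2062 and 2239 TPM in ND-Sham, 1412, 864 and 1072 in ND-IRI, 3917, 5552 and 5422 in HFD-Sham and 2683, 2179 and 2312 in HFD-IRI livers. Acaa1b exceeded Acaa1a 7.69- to 10.1-fold in ND-Sham, 13.6- to 14.6-fold in ND-IRI, 13.3- to 21.3-fold in HFD-Sham and 14.4- to 21.3-fold in HFD-IRI libraries, so that ND-Sham stood below the 3 other groups. After IRI both fell, with log2 differences on the normal and high-fat diets of -1.51 and -1.01 for Acaa1a and -0.89 and -1.04 for Acaa1b. Between diets in sham livers, Acaa1b was called (log2 difference 1.27, SE 0.188, adjusted p = 0.00305), and Acaa1a was not (log2 difference 0.28, SE 0.163, adjusted p = 0.352), although its groups did not overlap. Whether the diet effects of the paired genes differ was not tested. Scp2, which encodes a sterol carrier protein and a thiolase for branched chains, was the most abundant member in ND-Sham livers, at 2949.8, 2325 and 2708 TPM in ND-Sham, 2140.1, 1755 and 1839.9 in ND-IRI, 3141, 3696 and 3344 in HFD-Sham and 2509.6, 2325 and 2362 in HFD-IRI livers. Its IRI libraries were below the sham libraries on each diet, and it fell (log2 difference -0.48, adjusted p = 0.00829, and log2 difference -0.50, adjusted p = 0.00671). With quantile normalization the normal-diet call was lost (adjusted p = 0.138).

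**Figure D3:**
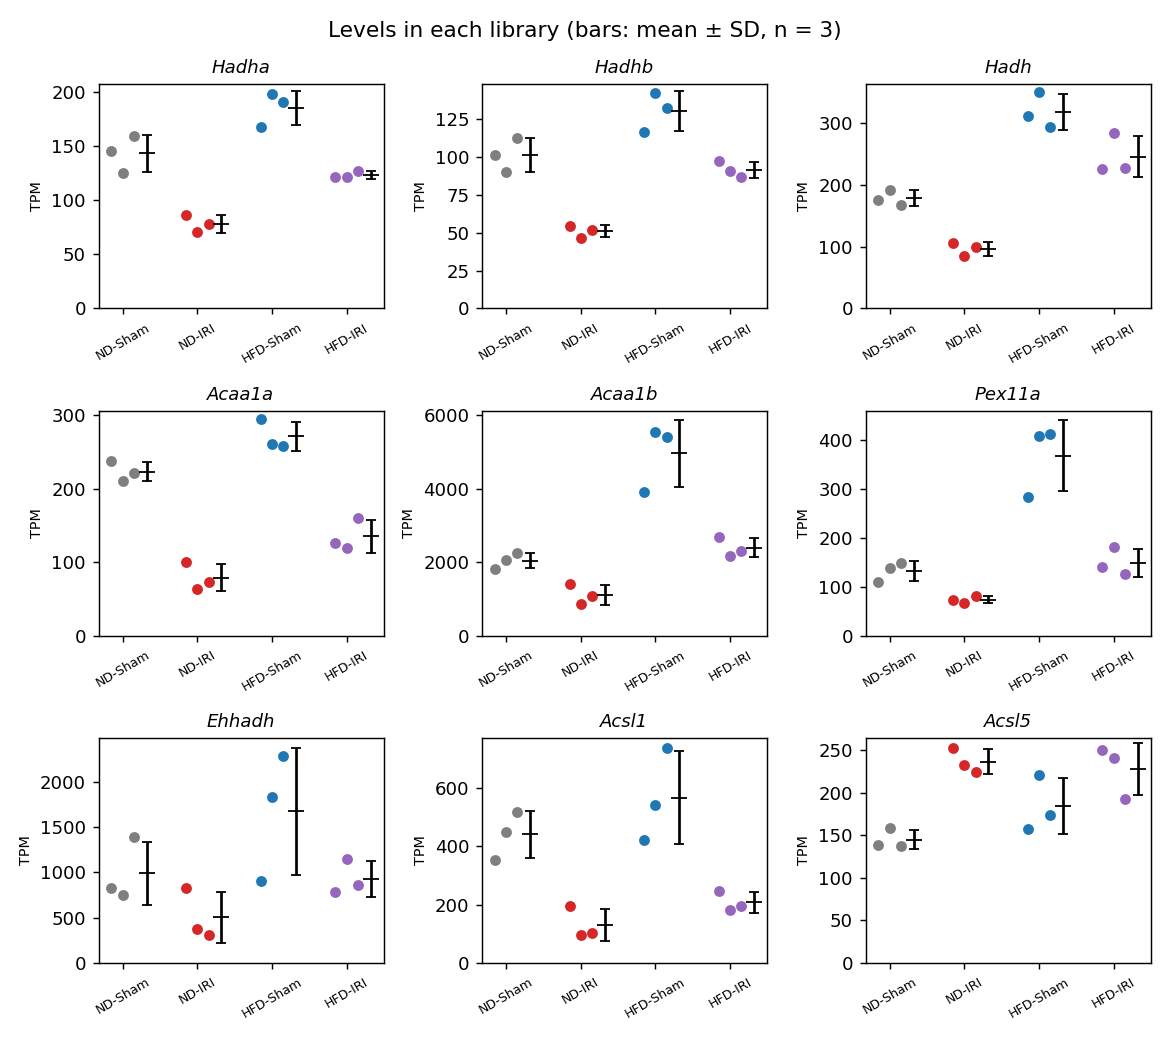
TPM of 9 members in each library (points, 3 per group) with mean ± SD beside them, every axis starting at 0. Hadha and Hadhb show nearly the same layout, Hadh stays higher in all HFD libraries, Acaa1b and Pex11a are highest in HFD-Sham livers, Ehhadh spreads within groups, and Acsl5 is higher in ND-IRI than in ND-Sham livers.

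Decr2, the peroxisomal dienoyl-CoA reductase, was at 332, 307 and 318 TPM in ND-Sham, 145, 90.3 and 103 in ND-IRI, 373, 419.9 and 382 in HFD-Sham and 201, 188 and 202 in HFD-IRI livers. It had the lowest estimate of the peroxisomal members on the normal diet (log2 difference -1.52, SE 0.148, adjusted p = 1.46e-05) and fell on the high-fat diet too (log2 difference -0.99, SE 0.148, adjusted p = 0.000273). Pex11a, a membrane protein of peroxisome division, was at 109, 139 and 149 TPM in ND-Sham, 73.5, 67.5 and 80.3 in ND-IRI, 284, 409 and 412 in HFD-Sham and 139.5, 181 and 127 in HFD-IRI livers. All 3 HFD-Sham libraries were above every other library. Pex11a fell on both diets (log2 difference -0.83, adjusted p = 0.0029, and log2 difference -1.29, adjusted p = 0.00017) and was higher on the high-fat diet in sham (log2 difference 1.46, SE 0.18, adjusted p = 0.00101) and in IRI livers (log2 difference 0.99, SE 0.18, adjusted p = 0.00956). Amacr, the racemase that prepares branched chains and bile acid precursors for oxidation in both compartments, was at 167, 147 and 139.9 TPM in ND-Sham, 63.5, 57.5 and 59.3 in ND-IRI, 154, 149 and 166 in HFD-Sham and 48.1, 39.2 and 53.5 in HFD-IRI livers. It had the lowest estimate of any member on the high-fat diet (log2 difference -1.73, SE 0.126, adjusted p = 2.82e-06) and fell on the normal diet (log2 difference -1.32, SE 0.126, adjusted p = 1.3e-05). Amacr was not called between diets in sham livers (log2 difference 0.05, adjusted p = 0.853) or in IRI livers, where the HFD libraries were the lower ones (log2 difference -0.36, adjusted p = 0.167). Acad11, an acyl-CoA dehydrogenase of both compartments, was at 106 ± 9.69 TPM in ND-Sham, 44.02 ± 6.42 in ND-IRI, 136 ± 13.9 in HFD-Sham and 55.01 ± 2.13 in HFD-IRI livers and fell on both diets (log2 difference -1.26, adjusted p = 1.81e-05, and log2 difference -1.29, adjusted p = 1.64e-05).

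The compartments were compared by description, since members are not replicates. On the normal diet the median log2 difference after IRI was -0.80 for mitochondrial and -0.89 for peroxisomal members, a gap of 0.09. That gap was 0.017 without ND-IRI 2, 0.20 without ND-Sham 1 and 0.25 without ND-IRI 1. On the high-fat diet the medians were -0.51 and -0.77, a gap of 0.26, which was 0.44 without HFD-Sham 1 or without HFD-IRI 2, and 0.37 with the members of both compartments counted as peroxisomal. The ranges overlapped, from -0.76 to -0.32 for mitochondrial and from -1.29 to -0.50 for peroxisomal members. Between diets the medians were 0.30 and 0.38 in sham livers and 0.53 and 0.74 in IRI livers.

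Summed over its 16 members, the mitochondrial TPM was 4807 ± 131 in ND-Sham, 2994.5 ± 223 in ND-IRI, 5686 ± 124 in HFD-Sham and 4010.2 ± 193 in HFD-IRI livers. The groups did not overlap. The peroxisomal sum was 7717 ± 688, 4544 ± 850.3, 12850.4 ± 2004 and 7222 ± 269 TPM in the same order. Here HFD-IRI, at 7011 to 7525 TPM, overlapped ND-Sham, at 7054 to 8428 TPM. Acaa1b, Scp2 and Ehhadh made up 72.8% to 79.5% of the peroxisomal sum in every library. The other 8 members summed to 1917 to 2092 TPM in ND-Sham, 901 to 1128 in ND-IRI, 2577 to 2972 in HFD-Sham and 1476 to 1555 in HFD-IRI livers, with no overlap. All 35 members together took 1.32% to 1.48% of the TPM of ND-Sham libraries and 0.744% to 0.974% of ND-IRI libraries. They took 1.77% to 2.17% in HFD-Sham and 1.2% to 1.27% in HFD-IRI libraries.

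**Figure D4:**
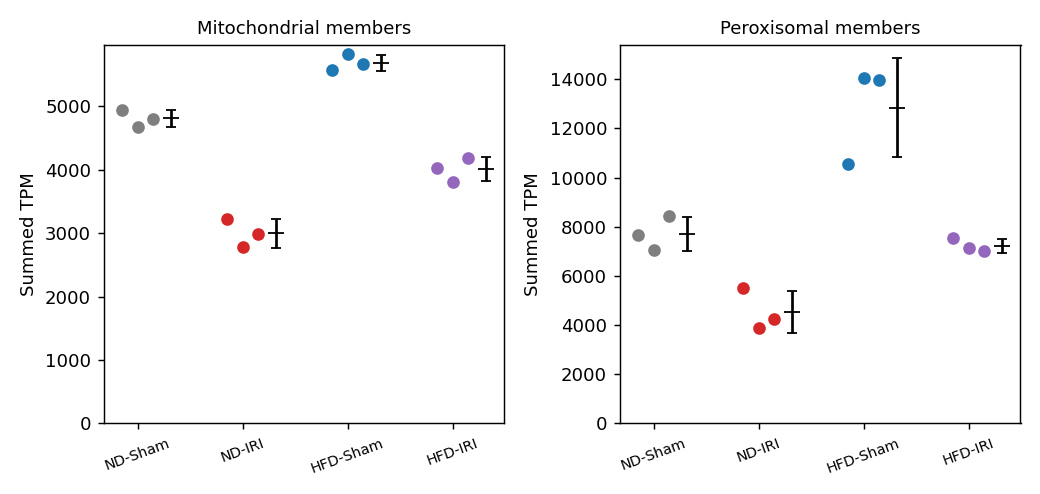
Summed TPM of the 16 mitochondrial (left) and 11 peroxisomal members (right) in each library (points) with mean ± SD (n = 3) beside them, axes starting at 0. The 4 groups are separate for the mitochondrial sum, while the HFD-IRI and ND-Sham points overlap for the peroxisomal sum.

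Group means placed the HFD-IRI level against the ND-Sham level, with no test. It was at or above the ND-Sham mean for 7 of 35 members, Acadm, Hadh, Eci1, Acaa1b, Pex11a, Acsl3 and Acsl5. The share over all genes was not computed for comparison. Acsl3 and Acsl5 stood above the ND-Sham mean in ND-IRI livers as well, at 188% and 163%. The median member stood at 83.4% of the ND-Sham mean in HFD-IRI livers and at 55.2% in ND-IRI livers. For Amacr the HFD-IRI mean was 31.0% of the ND-Sham mean and for Acsl1 47.1%.

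Whether IRI acted differently on the 2 diets was tested gene by gene as the difference between the IRI effects. By limma 0 of 35 members were called, against 0.0973% of all tested genes (13; 0.0524% lower and 0.0449% higher). The estimate was above 0, toward a smaller fall on the high-fat diet, for 14 of 16 mitochondrial and 5 of 11 peroxisomal members, against 33.7% of all tested genes. Median estimates were 0.27 and -0.02 on the log2 scale, against -0.13 over all tested genes. Median-ratio scaling shifted all genes by 0.15 here and quantile normalization by 0.15, and the medians were then 0.44 and 0.15 with the former and 0.32 and -0.17 with the latter, so that the sign of the peroxisomal median turned with the former. Eci1 had the smallest adjusted p (log2 difference 0.66, SE 0.159, adjusted p = 0.129, 95% interval 0.31 to 1.01). Decr2 and Hadh had the next highest estimates with an interval above 0, at 0.53 (95% interval 0.08 to 0.99) and 0.50 (95% interval 0.10 to 0.90). Amacr, at -0.41 (95% interval -0.80 to -0.02), was the member whose interval lay below 0. With ND-Sham 1 and ND-IRI 1 left out, Decr2 was called (log2 difference 0.70, SE 0.156, adjusted p = 0.049) and the other 34 members were not. The background in that setting was 0.494% higher, the direction of Decr2, and 1.99% lower. A count of 1 among 35 members is too small to set against these shares. The intervals were wide beside the falls themselves, so the lack of calls does not show equal effects.

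Most other genes of fatty acid oxidation and ketone body synthesis that were listed also fell after IRI. Of all tested genes 16.6% fell and 30.2% rose on the normal diet, and 21.9% and 24% on the high-fat diet. Of 8 genes of carnitine-dependent entry and ketone body synthesis 7 fell on the normal diet and 7 on the high-fat diet, with median log2 differences of -0.96 and -0.84. Of 20 further acyl-CoA oxidation genes 17 and 18 fell and 1 rose on each diet. Slc27a2, a peroxisomal and endoplasmic reticulum acyl-CoA synthetase, fell from 1540.3 ± 111 to 637 ± 116 TPM on the normal diet (log2 difference -1.28, adjusted p = 1.48e-05). Hsd17b10, a mitochondrial hydroxyacyl-CoA dehydrogenase, was at 447 ± 30.9 TPM in ND-Sham, 183 ± 5.10 in ND-IRI, 427 ± 48.1 in HFD-Sham and 404 ± 67.6 in HFD-IRI livers. It fell on the normal diet (log2 difference -1.28, adjusted p = 2.18e-05), was not called on the high-fat diet (log2 difference -0.09, adjusted p = 0.613), and was called for the difference (log2 difference 1.19, adjusted p = 0.0404), a call lost without each of 9 of the 12 libraries.

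Of 15 peroxins, the proteins of peroxisome assembly, 10 fell on the normal diet and 13 on the high-fat diet. The shares of all tested genes that fell were 16.6% and 21.9%. Pex16, which acts in membrane assembly, was at 174 ± 14.6 TPM in ND-Sham, 74.8 ± 3.82 in ND-IRI, 186 ± 11.1 in HFD-Sham and 97.4 ± 11.9 in HFD-IRI livers (log2 difference -1.21, adjusted p = 1.34e-05, and log2 difference -0.93, adjusted p = 7.95e-05). Of 11 tested other peroxisomal enzymes, 6 and 9 fell and 1 rose on each diet, among them Cat, catalase (log2 difference -0.66, adjusted p = 0.000565, and log2 difference -0.86, adjusted p = 0.000105). Of 17 citric acid cycle genes 8 and 11 fell and 1 rose (Fh1, fumarate hydratase). Their median log2 differences were -0.31 and -0.34. Of 7 genes for PPAR-alpha and related regulators, 3 fell on each diet (Ppara, Ppargc1b and Esrra). Ppara was at 64.6 ± 8.60 TPM in ND-Sham, 30.6 ± 7.74 in ND-IRI, 125 ± 9.56 in HFD-Sham and 45.2 ± 20.7 in HFD-IRI livers (log2 difference -1.07, adjusted p = 0.00836, and log2 difference -1.56, adjusted p = 0.000951), and the normal-diet call had an adjusted p of 0.0538 once ND-Sham 1 and ND-IRI 1 were left out.

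Of the 8 entry and ketone body genes, 4 were higher on the high-fat diet in sham and 5 in IRI livers. Of the 20 further oxidation genes 5 were higher and 1 lower in sham, and 6 higher and 1 lower in IRI livers. Of the 15 peroxins 2 were higher in sham livers and 0 were called in IRI livers, and of the 11 other peroxisomal enzymes 2 were higher in sham and 1 lower in IRI livers. Of the 17 citric acid cycle genes 1 was higher in each, and of the 7 regulators 0 were called. Over all tested genes 4.63% were higher and 1.2% lower in sham livers, and 2.38% and 1.48% in IRI livers. Bdh1, which makes beta-hydroxybutyrate, had the smallest adjusted p of its list in both, at 148 ± 24.5 TPM in ND-Sham, 56.7 ± 4.56 in ND-IRI, 280.00 ± 23.8 in HFD-Sham and 116 ± 8.46 in HFD-IRI livers (log2 difference 0.93, adjusted p = 0.00212, and log2 difference 1.02, adjusted p = 0.00123).

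Markers of other cells moved with the operation, in the same livers in which the members fell. Over all tested genes 30.2% rose and 16.6% fell on the normal diet, and 24% and 21.9% on the high-fat diet. All 8 neutrophil markers rose on both diets, and their summed level was 19.2 to 21.6 TPM in ND-Sham, 241 to 649.7 in ND-IRI, 6.8 to 15.9 in HFD-Sham and 204 to 552 in HFD-IRI libraries. In HFD-Sham 1 of the 8 was at 0 in all libraries. Red blood cell markers rose in 5 of 5 and 4 of 5 genes, with sums of 97.6 to 129 TPM in ND-Sham, 491 to 1554 in ND-IRI, 73.9 to 123 in HFD-Sham and 655 to 2299 in HFD-IRI libraries. Of the 7 Kupffer cell markers 3 and 2 fell, with sums of 309 to 322 TPM in ND-Sham, 129 to 237 in ND-IRI, 324 to 519.5 in HFD-Sham and 178 to 354 in HFD-IRI libraries. Of the 7 sinusoidal endothelial markers 2 rose and 1 fell on each diet, with sums of 66.5 to 91.9 TPM in ND-Sham, 134 to 163 in ND-IRI, 73.7 to 132 in HFD-Sham and 144 to 183 in HFD-IRI libraries. Lyve1 carried most of the rise of the sum, at 8.05 ± 3.84 TPM in ND-Sham, 67.2 ± 11.3 in ND-IRI, 14.8 ± 2.30 in HFD-Sham and 78.9 ± 5.46 in HFD-IRI livers. Pecam1 was the other that rose, Kdr fell, and Stab2, Clec4g, Oit3 and Fcgr2b were not called. The 8 hepatocyte markers summed to 110077 to 130452 TPM in ND-Sham and 102725 to 130124 in ND-IRI libraries, which overlapped, with 3 lower. In HFD-Sham they summed to 105648 to 119384 and in HFD-IRI to 99452 to 111906 TPM, with 1 lower. In bulk tissue, fewer cells of a type and less RNA per cell cannot be told apart, and the part of the marker changes in the falls was not tested.

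Between the diets 0 of 8 neutrophil, 0 of 7 Kupffer cell and 0 of 7 endothelial markers were called in sham or IRI livers. Of the 8 hepatocyte markers 1 was lower on the high-fat diet in sham livers and 0 were called in IRI livers, and of the 5 red blood cell markers 1 was lower in IRI livers. Of 5 adipocyte markers only Cfd passed the filter. It was at 67.5, 1.21 and 2.64 TPM in ND-Sham, 0.970, 5.01 and 2.52 in ND-IRI, 79.3, 21.5 and 16.4 in HFD-Sham and 59.3, 15.4 and 22.5 in HFD-IRI livers. Lep, the adipokine leptin, was at 0 in all HFD libraries, and Adipoq was at most 0.08 TPM in them. With ND-Sham 1 and ND-IRI 1 left out, 30 members fell and 1 rose after IRI on the normal diet. The background in that setting was 13.5% of all tested genes lower and 40.5% higher. Median-ratio scaling and quantile normalization shifted all genes by -0.19 and -0.24 in that comparison, and the members lower were then 33 and 31. With them the background was 25.3% lower and 25.7% higher, and 28.9% and 23.8%.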

How the data were processed

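Poly(A) RNA of mouse liver gave 12 strand-specific libraries, run on a BGI sequencer per the labels' protocols. The authors deposited TPM per gene symbol and sample, on build GRCm39 per the submitters' processing notes. The aligner, the counter, the annotation and the use of strand are not given in the sources used here. TPM keep no depth, so counting precision was unknown. Without 2 blank lines the table had 25947 entries, and 23 sample columns of a second sheet with 6 genes were not used.

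Values were transformed here as log2(TPM + 1), from the deposited TPM. The 13364 genes that reached 1 TPM in 3 or more samples were fitted in limma 3.58.1 (R 4.3.3) with 1 mean per group and a variance trend. Benjamini-Hochberg adjustment was made per contrast over all tested genes, with 5 contrasts. The fit was tested on simulated data. Members and gene lists were chosen with earlier results of these data known. Values of every library are given for the 4 lowest and 4 highest log2 differences among called members of each contrast, members moving against most others, and Acaa1a and Acaa1b. In the other lists up to 3 genes with the lowest adjusted p could be named. Alternatives were the pseudocount, the filter, median-ratio and quantile scaling, fits of only the groups compared, a replicate block, the compartment of members found in both, and leaving out libraries. The main fit did not pair libraries by replicate number. Promoter sequences came from RefSeq (build GRCm38.p6, not the build of the table). The plots used Python 3.11.15 and matplotlib 3.10.9.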

Additional observations from a re-analysis of the deposited data

How the results depend on the processing

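No direction was reversed in any alternative for a called member or for a named gene of the other lists. Leaving out 1 library at a time gave 30 to 32 members called after IRI on the normal diet. The counts were 27 to 31 on the high-fat diet, 3 to 10 between diets in sham livers and 10 to 19 in IRI livers. For the diet dependence of the IRI effect the count was 0. Over these fits, 13.4% to 16.7% of all tested genes were lower and 22.9% to 34.5% higher after IRI on the normal diet. On the high-fat diet 16.8% to 23.5% were lower and 18.3% to 26.1% higher. Between diets 1.39% to 6.8% were higher in sham and 1.09% to 2.54% in IRI livers. For the diet dependence at most 0.383% were lower and 0.165% higher. Of the members called, 3, 7, 8 and 9 lost the call in at least 1 alternative in the first 4 comparisons. With median-ratio scaling 1 and 8 members were called between diets in sham and IRI livers, against 2.08% and 1.76% of all tested genes higher. With only the groups compared the counts were 5 and 10, against 2.14% and 1.46%. With ND-Sham 1 and ND-IRI 1 both left out, 1 member was called for the diet dependence, as higher. The background of that setting was 0.494% higher and 1.99% lower, and 1 call is too few to set against it.

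The gap between the mitochondrial and peroxisomal medians of the log2 difference ranged over left-out libraries from 0.017 to 0.25 on the normal diet, 0.19 to 0.44 on the high-fat diet, -0.14 to -0.04 in sham livers, -0.24 to -0.10 in IRI livers and 0.23 to 0.33 for the diet dependence. On the normal diet it was 0.19 with ND-Sham 1 and ND-IRI 1 left out. With members of both compartments counted as peroxisomal it was 0.37 on the high-fat diet and -0.10 between diets in IRI livers. With quantile normalization it was -0.18 between diets in sham livers and 0.49 for the diet dependence. The cause of these changes was not tested.

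The 18 pairs of samples with the same replicate number had correlations of -0.19 to 0.42 between their deviations from the group means. Of these, 3 exceeded 0.1. The 36 pairs with different numbers had correlations of -0.41 to 0.31, and 12 exceeded 0.1. With 3 libraries per group these values cannot decide whether the numbers pair the libraries. With the replicate block, 31 and 30 members were called after IRI on the normal and high-fat diets. The background was 15.6% lower and 28.4% higher on the normal diet, and 20.5% and 22.6% on the high-fat diet. Between diets 6 and 17 members were called in sham and IRI livers, against 3.25% and 2.07% of all tested genes higher. For the difference 0 were called, against 0.0299% of all tested genes lower and 0.0374% higher. Without library depths, low-level members such as Acox3 have unknown counting error.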
